A study of Mus musculus with 12 samples.

Results

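The genes described here are the DNA methyltransferases Dnmt1, Dnmt3a and Dnmt3b, the Dnmt1 cofactor Uhrf1, and the 5-methylcytosine dioxygenases Tet1, Tet2 and Tet3. They were taken as every probe set whose only gene symbol in the platform annotation is one of these names, which gave 19 probe sets for 7 genes, of 45101 probe sets on the array. Dnmt1 had 3 probe sets, Uhrf1 2, Dnmt3a 5, Dnmt3b 2, Tet1 4, Tet2 2 and Tet3 1. Each probe set is given separately, since those of one gene did not always move together.

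The study sorted thymocytes of C57BL/6 mice by flow cytometry into 4 subsets, took total RNA from them without culture or treatment, and hybridised it to 12 Affymetrix mouse expression arrays, 3 per subset. The double-negative subset (DN) carried neither CD4, CD8α nor TCRβ, and the double-positive subset (DP) carried both CD4 and CD8α. The CD4 single-positive subset (CD4SP) was CD4+CD8α- and the CD8 single-positive subset (CD8SP) CD4-CD8α+, both with high TCRβ. The DN gate as described removes no lineage other than by these 3 surface proteins. The labels number the arrays of a subset 1 to 3 and do not say whether these came from separate animals, so p-values measure the spread between these arrays, which may be technical.

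Methylation of cytosine in CpG pairs is set on unmethylated DNA mainly by Dnmt3a and Dnmt3b and is copied to the new strand after replication by Dnmt1, which Uhrf1 brings to hemimethylated sites. Tet enzymes oxidise 5-methylcytosine, which starts its loss by dilution through replication or by base excision repair. In the thymus, DN cells divide strongly after β-selection, DP cells are mostly small and at rest, and single-positive cells are the selected progeny that leave for the periphery.

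All values are the authors' log values, read here as log2, with the mean of the 3 DP arrays subtracted from each probe set, so that DP lies at 0 and the level of one probe set cannot be set against that of another. Signal over background was lost with the levels, and the number of arrays limits the precision. Differences are from one limma fit of 45037 probe sets on all 12 arrays, with their standard error (SE), and "called" means a Benjamini-Hochberg adjusted p under 0.05 over all those probe sets. Comparisons that share a subset share its arrays: DP minus DN, CD4SP minus DP and CD8SP minus DP all use the DP arrays.

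Coreceptor transcripts followed the gates in the differences from DP. Cd4 was higher in DP than in DN by 5.22 and lower in CD8SP than in DP (-8.90), while Cd8a was lower in CD4SP than in DP (-6.53), as means of each gene's probe sets. DN did not lie lowest for these transcripts. Cd4 was higher in DN than in CD8SP (CD8SP minus DN -3.68). Cd8a and Cd8b1 were higher in DN than in CD4SP (CD4SP minus DN -2.81 and -1.97). The source of this RNA on the DN arrays was not tested. All 5 DN markers measured were lower in DP, and all 4 measured DP markers, Rag1, Rag2, Dntt and Arpp21, were lower in both single-positive subsets than in DP. CD8SP array 1 and DN array 1 stood apart from the others of their subsets, with limma array weights of 0.30 and 0.60, against 0.75 to 1.69 for the other arrays. Leaving both out is one of the alternatives, and where 1 array decides a call it is named beside the value. Markers of myeloid, B, NK and γδ T cells averaged higher on the DN arrays than on the DP arrays, and those of erythroid cells and thymic stroma did not. The 3 measured erythroid markers averaged -0.565 to -0.15 on DN arrays and -0.48 to 0.24 on DP arrays (1 higher in DP, 0 lower). For 7 stromal markers the averages were -0.36 to 0.13 and -0.07 to 0.07 (1 lower in DP, 0 higher). The 11 myeloid and dendritic cell markers averaged -0.22 to 0.21 on the DP arrays, against 3.09 to 4.85 on the DN arrays, and 8 of 11 were lower in DP. For 7 measured B cell markers the averages were -0.09 to 0.07 on DP arrays and 0.55 to 2.17 on DN arrays (3 lower in DP), for 6 NK and innate lymphoid markers -0.08 to 0.05 and 1.03 to 2.40 (5 lower), and for 3 γδ T cell markers -0.09 to 0.18 and 1.06 to 1.62 (3 lower). The part of these cells in the differences from DN given below was not tested. Which of the markers lay at background in DP could not be read from centred values.

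Across the 19 probe sets, those of the maintenance genes Uhrf1 and Dnmt1 were highest in DN and lowest in CD4SP, those of Dnmt3b were lowest in DP, and most Tet probe sets were highest in single-positive cells. In DP minus DN, 1 probe set was higher and 8 were lower, where 19.7% and 15.4% of all probe sets were called higher and lower (35.1% either way). With arrays centred on their medians, 46.6% of all calls in DP minus DN were higher, against 56.1% as reported, so the more frequent direction of all calls turned. In CD4SP minus DP, 10 were higher and 5 lower, where 13.6% and 14.7% of all were (28.3% either way), and in CD8SP minus DP 9 were higher and 5 lower, where 15.1% and 20.9% of all were (36% either way). CD4SP minus CD8SP had 3 higher and 4 lower, where 7.58% and 3.78% of all were (11.4% either way). In CD4SP minus DN 8 were higher and 8 lower, where 23.3% and 18% of all were (41.2% either way), and in CD8SP minus DN 6 were higher and 8 lower, where 18.4% and 19.9% of all were (38.3% either way). The share of members called was 47.4% in DP minus DN, 78.9% in CD4SP minus DP, 73.7% in CD8SP minus DP and 36.8% in CD4SP minus CD8SP. It was 84.2% in CD4SP minus DN and 73.7% in CD8SP minus DN. Every one of the 7 genes had a called probe set in each comparison except DP minus DN (5 genes) and CD4SP minus CD8SP (3 genes). The median difference of the 19 was -0.15 in DP minus DN (0.09 over all probe sets) and 0.54 in CD4SP minus DP (0.02 over all). Centring on DP leaves on the DP arrays only their deviations from their own mean. Quantile normalization forces all arrays to equal width and so widens these deviations, which enter the spread estimate of the fit. It left 5 members called in DP minus DN (those of Dnmt1 and Dnmt3b), 10 in CD4SP minus DP, 3 in CD8SP minus DP (both Uhrf1 probe sets and 1449052_a_at of Dnmt3b) and 0 in CD4SP minus CD8SP. In CD4SP minus DP it ended the calls of 1460324_at (Dnmt3a), 1418351_a_at (Dnmt3b), 1429448_s_at (Tet1), 1438781_at (Tet2) and 1439324_at (Tet3), with limma adjusted p from 0.101 to 0.245. It also ended calls against DN. In CD4SP minus DN these were 1423064_at and 1460324_at (Dnmt3a), 1429448_s_at (Tet1) and 1439324_at (Tet3), with limma adjusted p from 0.0974 to 0.172. In CD8SP minus DN they were 1423064_at, 1460324_at, 1419896_at (Tet1) and 1439324_at, with limma adjusted p from 0.0532 to 0.513.

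**Figure D1:**
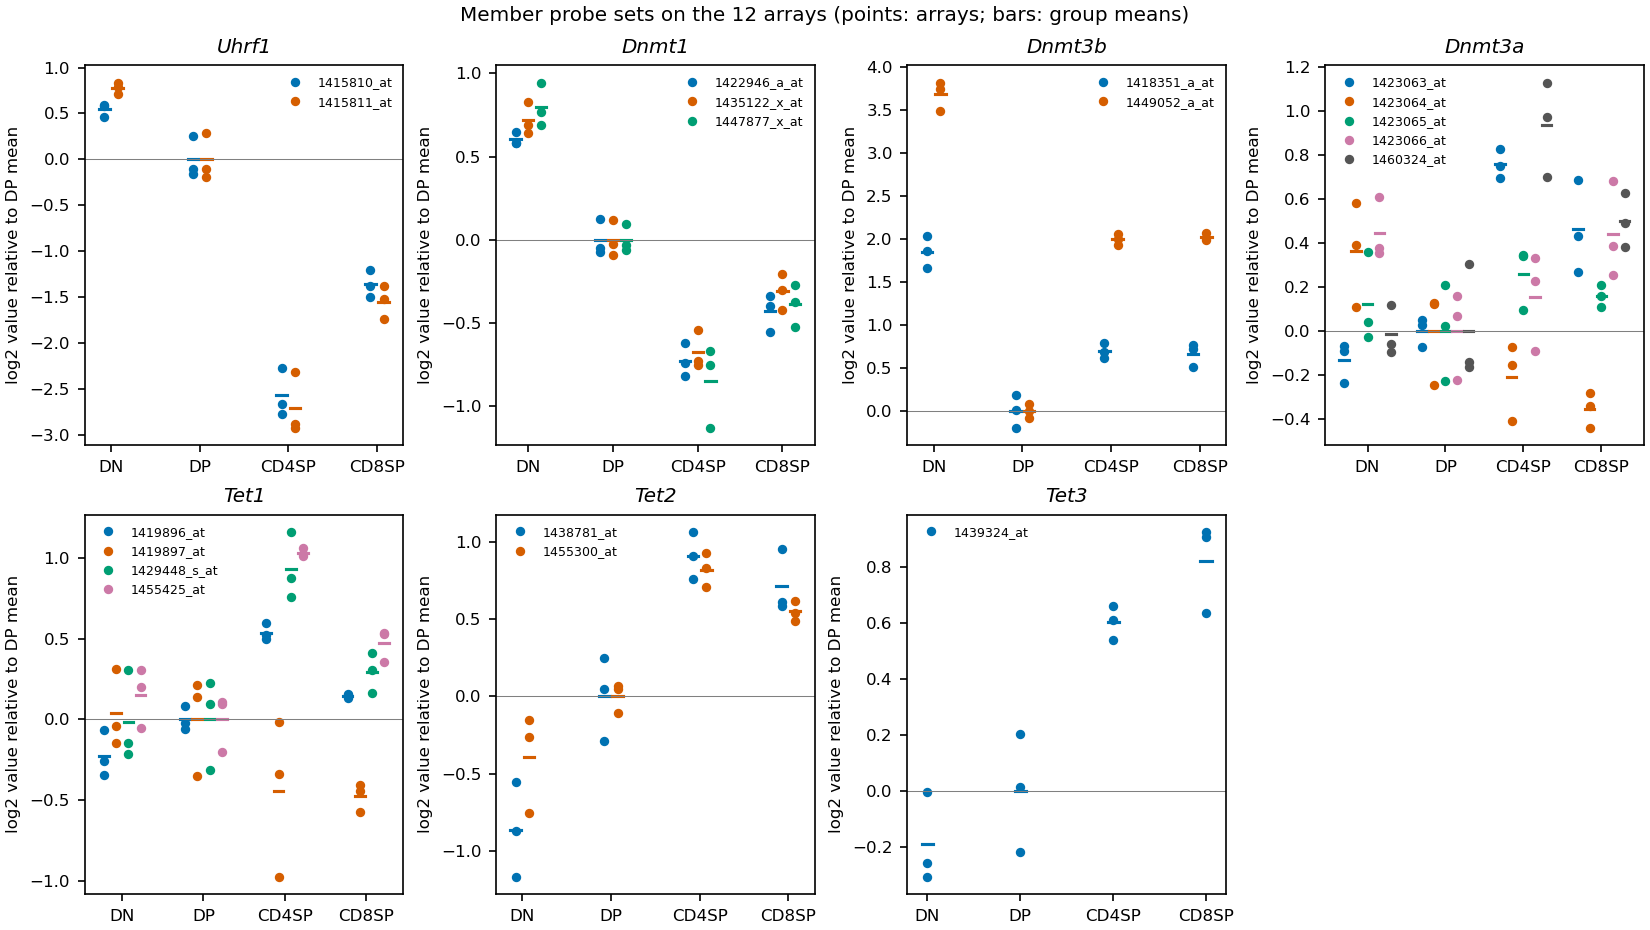
Values of the 19 probe sets on each array, one panel per gene. The horizontal axis gives the 4 subsets, the vertical axis the log2 value relative to the DP mean, points are arrays, short bars are subset means (n = 3) and colours are probe sets. Uhrf1 and Dnmt1 step down from DN to CD4SP with CD8SP in between DP and CD4SP, Dnmt3b is lowest in DP, and the Tet2 and Tet3 points are highest in the single-positive subsets.

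Uhrf1, the protein that reads hemimethylated CpG and recruits Dnmt1, was highest in DN, lower in DP, lower again in CD8SP and lowest in CD4SP, on both probe sets. Probe set 1415811_at read 0.79, 0.84 and 0.71 on the DN arrays, 0.29, -0.19 and -0.10 on the DP arrays, -2.31, -2.92 and -2.88 on the CD4SP arrays, and -1.74, -1.38 and -1.52 on the CD8SP arrays. No 2 of these subsets overlapped. CD4SP minus DP was -2.70 ± 0.18 (SE; 6.52-fold lower; limma adjusted p = 1.22e-06), and CD8SP differed from DP by -1.55 ± 0.18 (2.93-fold, adjusted p = 6.25e-05). Fewer cells that express a gene and less of its RNA per cell cannot be told apart in such bulk samples. The single-positive subsets themselves differed by -1.16 ± 0.18 (CD4SP minus CD8SP, 2.23-fold, limma adjusted p = 0.00273), which is also the test that their differences from DP were unequal. DP differed from DN by -0.78 ± 0.18 (limma adjusted p = 0.00611).

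The second Uhrf1 probe set, 1415810_at, gave the same order with similar sizes. Its means were 0.55 ± 0.07 in DN, 0.00 ± 0.23 in DP, -2.57 ± 0.26 in CD4SP, with -1.36 ± 0.15 in CD8SP (SD, n = 3 arrays each). CD4SP minus DP was -2.57 ± 0.15 (limma adjusted p = 5.6e-07) and CD4SP minus CD8SP -1.21 ± 0.15 (limma adjusted p = 0.000915). Its DP minus DN difference of -0.55 ± 0.15 (limma adjusted p = 0.0169) lost its call without DP array 2 (0.0603) and without DP array 3 (0.0682).

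Dnmt1, the maintenance methyltransferase, followed the order of Uhrf1 with smaller steps. On 1422946_a_at it read 0.58, 0.65 and 0.58 in DN, 0.13, -0.08 and -0.05 in DP, -0.62, -0.74 and -0.82 in CD4SP, with -0.34, -0.40 and -0.56 in CD8SP. The 4 subsets did not overlap on this probe set. DP minus DN was -0.60 ± 0.10 (1.52-fold, limma adjusted p = 0.000652), CD4SP minus DP -0.73 ± 0.10 (1.65-fold, adjusted p = 0.000206) and CD8SP minus DP -0.43 ± 0.10 (1.35-fold, adjusted p = 0.0051). CD4SP minus DN was -1.33 ± 0.10 (2.51-fold, limma adjusted p = 1.99e-06).

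The other Dnmt1 probe sets carry the suffix that Affymetrix gives where probes may match further sequences. Both were lower in DP than in DN (-0.72 ± 0.10 for 1435122_x_at and -0.80 ± 0.13 for 1447877_x_at) and lower in CD4SP than in DP (-0.68 ± 0.10 and -0.85 ± 0.13). Between the single-positive subsets, 1435122_x_at had -0.55, -0.73 and -0.75 in CD4SP and -0.21, -0.42 and -0.30 in CD8SP. On 1447877_x_at the arrays read -0.67, -1.13 and -0.75 in CD4SP and -0.27, -0.52 and -0.37 in CD8SP. These subsets did not overlap on either probe set, but the calls were narrow. CD4SP minus CD8SP was -0.37 ± 0.10 (limma adjusted p = 0.0443) and -0.46 ± 0.13 (limma adjusted p = 0.0474), and it was -0.30 ± 0.10 and not called on 1422946_a_at (limma adjusted p = 0.0791). The 1435122_x_at call was lost when any one of DN 2 or 3, DP 2 or 3, CD4SP 2 or 3 or CD8SP 1, 2 or 3 was left out (limma adjusted p from 0.0538 to 0.144). For 1447877_x_at it was lost without any one of DN 2 or 3, any DP array, CD4SP 2 or 3 or any CD8SP array (0.0578 to 0.146). Their CD8SP minus DP calls (-0.31 ± 0.10, limma adjusted p = 0.0362, and -0.39 ± 0.13, limma adjusted p = 0.0401) were also lost without single arrays. For 1435122_x_at these were DP 1 or 3 and CD8SP 2 or 3 (0.0731 to 0.123), and for 1447877_x_at DN 2, any DP array, CD4SP 3 and CD8SP 2 or 3 (0.0501 to 0.128).

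Promoter windows of RefSeq (GRCm38.p6) are shown for Uhrf1 and Dnmt1, which moved together, and for Dnmt3b, which did not follow them. Of the windows at each gene's annotated starts (2 for Uhrf1, 3 for Dnmt1 and 1 for Dnmt3b), the one with the most CpG pairs is printed, 5′ to 3′ on the gene's strand. Capitals mark the letters TTTNGCGC on either strand, the core of the consensus bound by E2F factors, which drive S phase genes. The motif was chosen after these windows had been read, so its presence is a description only. Uhrf1 is at chr17:56304063-56304362 on the + strand, Dnmt1 at chr9:20952574-20952873 on the - strand and Dnmt3b at chr2:153649199-153649498 on the + strand.
Uhrf1: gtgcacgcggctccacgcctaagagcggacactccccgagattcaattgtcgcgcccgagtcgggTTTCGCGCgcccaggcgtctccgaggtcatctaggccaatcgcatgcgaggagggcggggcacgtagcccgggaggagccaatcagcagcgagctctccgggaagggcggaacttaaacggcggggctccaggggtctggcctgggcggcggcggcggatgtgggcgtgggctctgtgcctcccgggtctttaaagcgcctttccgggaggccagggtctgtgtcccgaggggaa
Dnmt1: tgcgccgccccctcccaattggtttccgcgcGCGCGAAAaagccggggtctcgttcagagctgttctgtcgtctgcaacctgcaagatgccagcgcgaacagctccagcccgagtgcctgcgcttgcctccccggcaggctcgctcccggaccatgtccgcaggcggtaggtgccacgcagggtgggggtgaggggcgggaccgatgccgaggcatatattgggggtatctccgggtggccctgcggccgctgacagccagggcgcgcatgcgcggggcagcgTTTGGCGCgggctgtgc
Dnmt3b: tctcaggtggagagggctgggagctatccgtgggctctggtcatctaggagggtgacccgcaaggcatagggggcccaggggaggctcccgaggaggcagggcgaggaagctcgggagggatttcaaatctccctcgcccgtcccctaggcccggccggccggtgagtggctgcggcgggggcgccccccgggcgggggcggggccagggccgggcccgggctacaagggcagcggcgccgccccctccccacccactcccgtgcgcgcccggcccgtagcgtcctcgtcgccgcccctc
The windows hold 33, 33 and 30 CpG pairs in that order, against a median of 7 over all 32851 promoter windows of 300 bases. They were picked for this count, so the median is no like measure. The windows passed over hold 12 CpG pairs for Uhrf1 and 2 and 12 for Dnmt1, each with 0 motifs. The motif occurs 1 time in the Uhrf1 window, 2 times in the Dnmt1 window and 0 times in the Dnmt3b window. It is present in 452 (1.38%) of all windows and in 2 of the 12 windows of the 7 genes. The motif itself holds CpG, so the share over all windows is not the share over windows rich in CpG.

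Dnmt3b, a de novo methyltransferase, had the largest difference among the 19 probe sets. Probe set 1449052_a_at read 3.49, 3.81 and 3.74 on the DN arrays, 0.00, -0.08 and 0.08 on the DP arrays, 2.00, 1.93 and 2.06 on the CD4SP arrays, and 2.01, 2.06 and 1.99 on the CD8SP arrays. DN was above all others, DP below all others, and the single-positive subsets overlapped each other. DP minus DN was -3.68 ± 0.10 (12.8-fold, limma adjusted p = 7.39e-09). CD4SP exceeded DP by 2.00 ± 0.10 (3.99-fold, limma adjusted p = 1.82e-07) and CD8SP exceeded DP by 2.02 ± 0.10 (4.05-fold, limma adjusted p = 1.52e-07). Both single-positive subsets stayed below DN, by differences of -1.68 ± 0.10 and -1.66 ± 0.10.

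The same order appeared on 1418351_a_at with smaller differences. Its values were 1.67, 2.03 and 1.85 in DN, 0.01, -0.19 and 0.18 in DP, 0.69, 0.79 and 0.61 in CD4SP, with 0.76, 0.72 and 0.51 in CD8SP. DP minus DN was -1.85 ± 0.13 (3.61-fold, limma adjusted p = 2.31e-06), CD4SP minus DP 0.70 ± 0.13 (adjusted p = 0.00201) and CD8SP minus DP 0.66 ± 0.13 (adjusted p = 0.00213). CD4SP minus CD8SP was not called on either probe set. Its 95% interval ran from -0.24 to 0.20 on 1449052_a_at and from -0.25 to 0.32 on 1418351_a_at.

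Dnmt3a, the other de novo methyltransferase, gave no single pattern over its 5 probe sets. Probe sets 1423063_at and 1460324_at were higher in single-positive cells, and 1423064_at was lower in them than in DN. On 1423063_at the arrays read -0.24, -0.09 and -0.07 in DN, -0.07, 0.02 and 0.05 in DP, 0.75, 0.70 and 0.83 in CD4SP, with 0.69, 0.27 and 0.43 in CD8SP. DN and DP overlapped, and both single-positive subsets lay above them. CD4SP exceeded DP by 0.76 ± 0.11 (1.69-fold, limma adjusted p = 0.000418) and CD8SP exceeded DP by 0.46 ± 0.11 (1.38-fold, limma adjusted p = 0.00782).

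Probe set 1460324_at of Dnmt3a had 0.12, -0.06 and -0.10 in DN, 0.30, -0.14 and -0.16 in DP, 1.13, 0.70 and 0.97 in CD4SP, with 0.63, 0.38 and 0.49 in CD8SP. CD4SP exceeded DP by 0.94 ± 0.15 (limma adjusted p = 0.000816). Its CD8SP minus DP difference of 0.50 ± 0.15 (limma adjusted p = 0.0251) lost its call without DP 2 (0.0901), DP 3 (0.0946), CD8SP 1 (0.0739) or CD8SP 3 (0.0555), and its CD8SP minus DN difference of 0.51 ± 0.15 (0.0214) without DN 2 (0.0627), DN 3 (0.0649) or CD8SP 1 (0.0685). CD4SP minus CD8SP was not called on either of these probe sets (0.30 ± 0.11, limma adjusted p = 0.119, and 0.44 ± 0.15, limma adjusted p = 0.0946), but on 1423063_at it was called without CD8SP 1 (0.41, adjusted p = 0.0232).

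The remaining Dnmt3a probe sets went other ways. For 1423064_at CD4SP minus DN was -0.57 ± 0.15 (limma adjusted p = 0.0103) and CD8SP minus DN -0.72 ± 0.15 (limma adjusted p = 0.00333). DP minus DN on that probe set was -0.36 ± 0.15 and not called (limma adjusted p = 0.0864), though it was called without DN 1 (-0.49, 0.0316), and CD8SP minus DP (-0.36 ± 0.15, 0.0893) was called without DP 1 (-0.48, 0.037). For 1423066_at DP lay below DN (-0.45 ± 0.16, limma adjusted p = 0.0459) and CD8SP above DP (0.44 ± 0.16, limma adjusted p = 0.0471). The first of these was lost without any DN array, DP 1 or 2, CD4SP 3 or CD8SP 2 (0.0588 to 0.161), and the second without any DN array, DP 1 or 2, CD4SP 3, or CD8SP 2 or 3 (0.0515 to 0.164). For 1423065_at none of the 6 comparisons was called, with differences from -0.12 to 0.26 and intervals within -0.43 and 0.56.

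**Figure D2:**
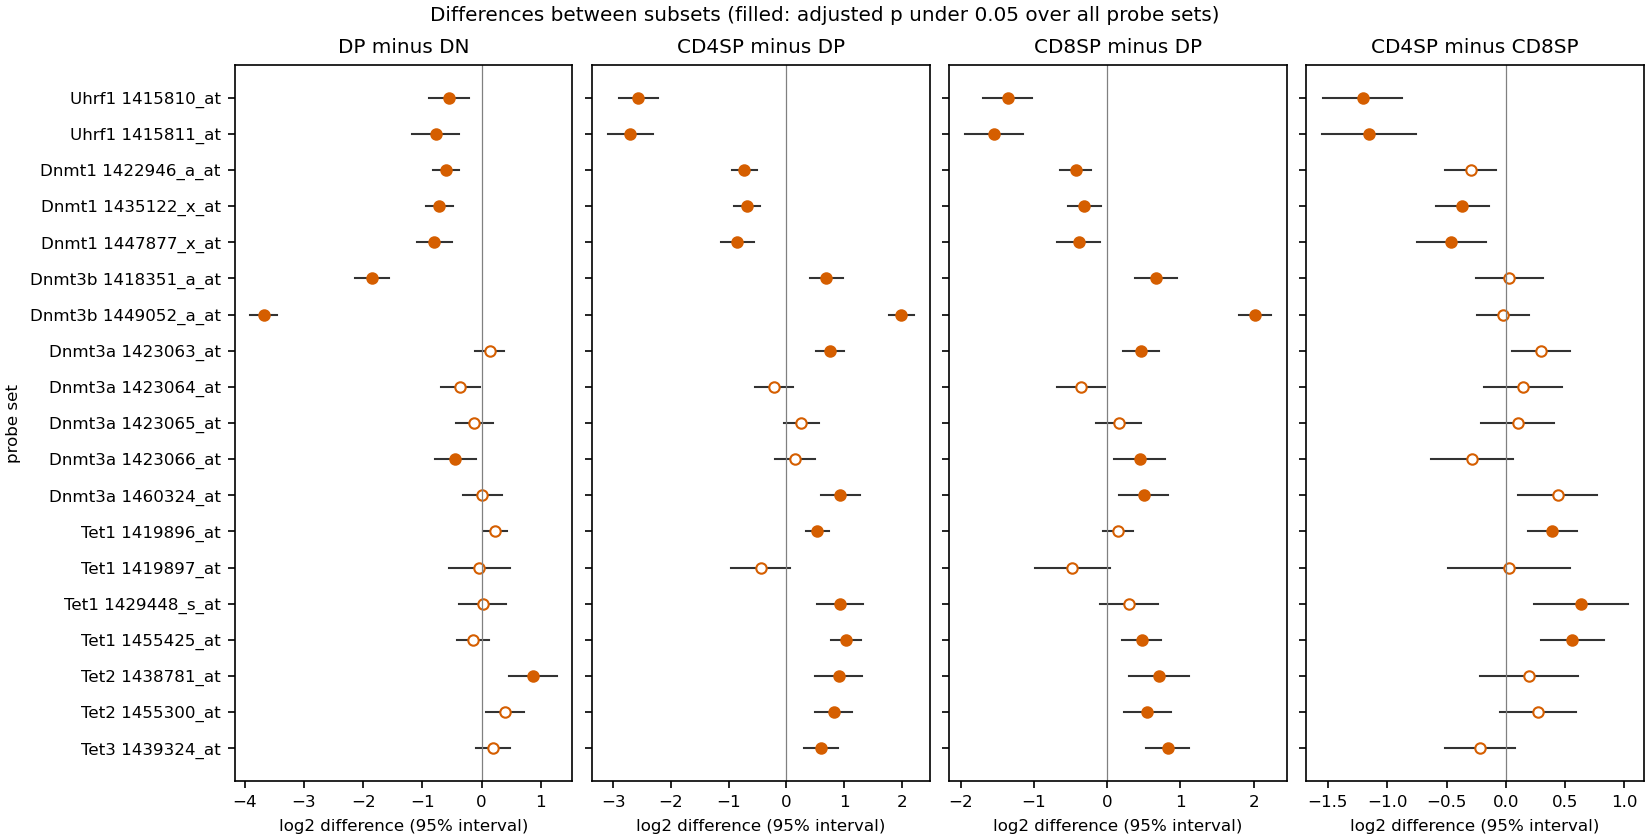
Differences between subsets for the 19 probe sets, one panel per comparison. The horizontal axis is the log2 difference with its 95% interval, rows are probe sets, and filled points have a limma adjusted p under 0.05 over all 45037 probe sets. Uhrf1 and Dnmt1 lie left of 0 in all 4 panels, Dnmt3b switches from -3.68 and -1.85 in DP minus DN to positive values in both single-positive comparisons, and 3 of 4 Tet1 probe sets lie right of 0 in CD4SP minus CD8SP with filled points.

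Tet1, a dioxygenase that binds CpG-rich DNA through a CXXC domain, was higher in CD4SP than in the other subsets on 3 of its 4 probe sets. Probe set 1455425_at read -0.06, 0.20 and 0.31 in DN, -0.20, 0.09 and 0.11 in DP, 1.06, 1.01 and 1.03 in CD4SP, with 0.35, 0.53 and 0.54 in CD8SP. The CD4SP arrays lay above all others, the CD8SP arrays above those of DN and DP, and DN and DP overlapped. CD4SP minus DP was 1.03 ± 0.12 (2.05-fold, limma adjusted p = 7.8e-05), CD8SP minus DP 0.47 ± 0.12 (1.39-fold, adjusted p = 0.0104) and CD4SP minus CD8SP 0.56 ± 0.12 (1.47-fold, adjusted p = 0.014). CD8SP minus DN was 0.32 ± 0.12 and not called (limma adjusted p = 0.0567), and it was called without DN 3 (0.0398), DP 1 (0.041) or CD8SP 1 (0.0473).

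On 1429448_s_at of Tet1 the CD4SP arrays read 0.88, 0.76 and 1.16, the CD8SP arrays 0.31, 0.41 and 0.16, and the DP arrays -0.32, 0.22 and 0.09. CD4SP exceeded DP by 0.93 ± 0.18 (limma adjusted p = 0.00252), and CD8SP minus DP was 0.29 ± 0.18 and not called (limma adjusted p = 0.234). The CD4SP minus CD8SP difference of 0.64 ± 0.18 (limma adjusted p = 0.0443) was lost without any one of DN 1, DP 3 and the 3 arrays each of CD4SP and CD8SP (0.0515 to 0.153). Probe set 1419896_at showed a smaller step, with 0.52, 0.50 and 0.59 in CD4SP, 0.15, 0.13 and 0.15 in CD8SP, and -0.06, -0.02 and 0.08 in DP. None of these 3 subsets overlapped. CD4SP minus DP was 0.54 ± 0.09 (limma adjusted p = 0.00121), and CD4SP minus CD8SP was 0.39 ± 0.09 (limma adjusted p = 0.0209), which was lost without any CD4SP array, CD8SP 2 or CD8SP 3 (0.0505 to 0.08). DP minus DN on this probe set was 0.22 ± 0.09 (limma adjusted p = 0.0855) and was called only without DN 3 (0.30, 0.0317) among the omissions of 1 array.

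The fourth Tet1 probe set, 1419897_at, had no called difference and lay on the other side of 0. Its CD4SP arrays spread over -0.34, -0.02 and -0.98, and CD4SP minus DP was -0.44 ± 0.23 (limma adjusted p = 0.195). CD8SP minus DN (-0.52 ± 0.23, limma adjusted p = 0.107) was called without CD4SP 3 (0.0444) and CD4SP minus DN (-0.49 ± 0.23, 0.12) without CD4SP 2 (-0.70, 0.0387).

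Tet2, a dioxygenase without a CXXC domain of its own, was lowest in DN and highest in the single-positive subsets. Probe set 1438781_at read -1.17, -0.87 and -0.55 in DN, -0.29, 0.04 and 0.25 in DP, 1.06, 0.90 and 0.76 in CD4SP, with 0.95, 0.61 and 0.58 in CD8SP. DN lay below DP and DP below both single-positive subsets, which overlapped each other. DP minus DN was 0.86 ± 0.19 (1.82-fold, limma adjusted p = 0.00406), CD4SP minus DP 0.91 ± 0.19 (1.88-fold, adjusted p = 0.00363) and CD8SP minus DP 0.71 ± 0.19 (1.64-fold, adjusted p = 0.0114). It was the 1 probe set of the 19 that was called higher in DP than in DN.

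On 1455300_at Tet2 read -0.75, -0.15 and -0.26 in DN, -0.11, 0.05 and 0.06 in DP, 0.70, 0.93 and 0.83 in CD4SP, with 0.49, 0.54 and 0.62 in CD8SP. CD4SP exceeded DP by 0.82 ± 0.14 (limma adjusted p = 0.0014) and CD8SP exceeded DP by 0.55 ± 0.14 (limma adjusted p = 0.012). DP minus DN was 0.39 ± 0.14 and not called (limma adjusted p = 0.0575), and it was called without DN 2 (0.51, 0.0268). CD4SP minus CD8SP was not called on either probe set, with intervals from -0.21 to 0.61 on 1438781_at and from -0.05 to 0.59 on 1455300_at.

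Tet3, the third dioxygenase, was measured by 1439324_at alone. It read -0.31, 0.00 and -0.26 in DN (the second just below 0), -0.22, 0.01 and 0.20 in DP, 0.66, 0.54 and 0.61 in CD4SP, with 0.93, 0.64 and 0.91 in CD8SP. DN and DP overlapped, as did CD4SP and CD8SP, and the single-positive arrays lay above all DN and DP arrays. CD4SP exceeded DP by 0.60 ± 0.13 (1.52-fold, limma adjusted p = 0.00558) and CD8SP exceeded DP by 0.82 ± 0.13 (1.77-fold, limma adjusted p = 0.000613). DP minus DN (0.19 ± 0.13, interval -0.10 to 0.48) and CD4SP minus CD8SP (-0.22 ± 0.13, interval -0.51 to 0.07) were not called.

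The arrays of the subsets compared did not overlap for 11 of the 19 probe sets in DP minus DN, 15 in CD4SP minus DP, 17 in CD8SP minus DP, 11 in CD4SP minus CD8SP, 17 in CD4SP minus DN and 16 in CD8SP minus DN. The shares over all probe sets were 49.2%, 45.8%, 46.9%, 29.2%, 54.1% and 47.7% in that order. In CD4SP minus CD8SP the markers of NK and innate lymphoid cells averaged 0.46 to 0.79 on CD4SP arrays and 1.67 to 2.03 on CD8SP arrays, with 2 of 6 lower in CD4SP (Klrd1 and Eomes, which CD8 lineage cells also express). Their part in the Uhrf1, Dnmt1 and Tet1 differences was not tested.

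Of 16 measured S phase and proliferation genes, as means of each gene's probe sets, 1 rose and 11 fell in DP relative to DN, where 17.8% and 18.8% of all 18193 genes were called higher and lower. All 16 were lower in CD4SP than in DP (16.2% of all genes were lower), 9 fell and 0 rose in CD8SP relative to DP (20.9% lower and 18.2% higher over all), and 11 fell and 0 rose in CD4SP relative to CD8SP (4.91% and 7.78% over all). Their median difference was -0.76 in DP minus DN (0.04 over all genes), -1.26 in CD4SP minus DP (0.04) and -0.74 in CD4SP minus CD8SP (0.03). Under quantile normalization 4 of them were called in CD8SP minus DP and 3 in CD4SP minus CD8SP. Their mean per array was 0.45 to 0.69 in DN, -0.09 to 0.17 in DP, -1.47 to -1.16 in CD4SP and -0.71 to -0.55 in CD8SP, and its part in the Uhrf1 and Dnmt1 differences was not tested. Mcm6, a subunit of the replicative helicase, differed by -0.99 ± 0.09 in CD4SP minus DP and by -1.12 ± 0.09 in CD4SP minus CD8SP, but by 0.14 ± 0.09 in CD8SP minus DP (limma adjusted p = 0.268). Mcm3, of the same helicase, gave -0.73 ± 0.08 in CD4SP minus DP and -0.85 ± 0.08 in CD4SP minus CD8SP. Cdc6, which loads that helicase, was lower in CD4SP than in DP (-1.46 ± 0.13) and in CD8SP than in DP (-0.39 ± 0.13), and Gins2, a helicase cofactor, was lower in DP than in DN (-1.41 ± 0.12).

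Among 10 listed partners, relatives and regulators of the methyltransferases, which include Trdmt1 and Dppa3, 7 fell and 0 rose in CD4SP relative to DP, 6 fell and 0 rose in CD8SP relative to DP, and 2 rose and 2 fell in DP relative to DN. Over all genes 16.2% fell and 16.4% rose in CD4SP minus DP, 20.9% and 18.2% in CD8SP minus DP, and 18.8% and 17.8% in DP minus DN. The list's median difference was -0.72 in CD4SP minus DP and -0.61 in CD8SP minus DP, against 0.04 and 0.00 over all genes. In CD4SP minus CD8SP 3 of the listed genes fell and 0 rose, where 4.91% and 7.78% of all genes did. Under quantile normalization 2 of the listed genes were called in DP minus DN and 0 in CD4SP minus CD8SP. The list holds Pcna, which is itself a replication gene. Cdca7, the partner of the remodeller Hells, was lower in CD4SP than in DP by a difference of -2.25 ± 0.11 and in CD8SP than in DP by -1.81 ± 0.11 (limma adjusted p = 1.48e-07 and 5.99e-07), and DP minus DN was 0.15 ± 0.11 (limma adjusted p = 0.345). Hells, which opens chromatin for DNA methylation, was lower in DP than in DN (-1.10 ± 0.13) and in CD4SP than in CD8SP (-0.60 ± 0.13). Usp7, a deubiquitinase that acts on Uhrf1 and Dnmt1, was higher in DP than in DN (0.41 ± 0.07) and lower in CD4SP (-0.96 ± 0.07) and CD8SP (-1.16 ± 0.07) than in DP. Trim28, a corepressor that recruits methyltransferases, was lower in CD4SP than in DP (-0.85 ± 0.09) and in CD8SP than in DP (-0.71 ± 0.09).

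**Figure D3:**
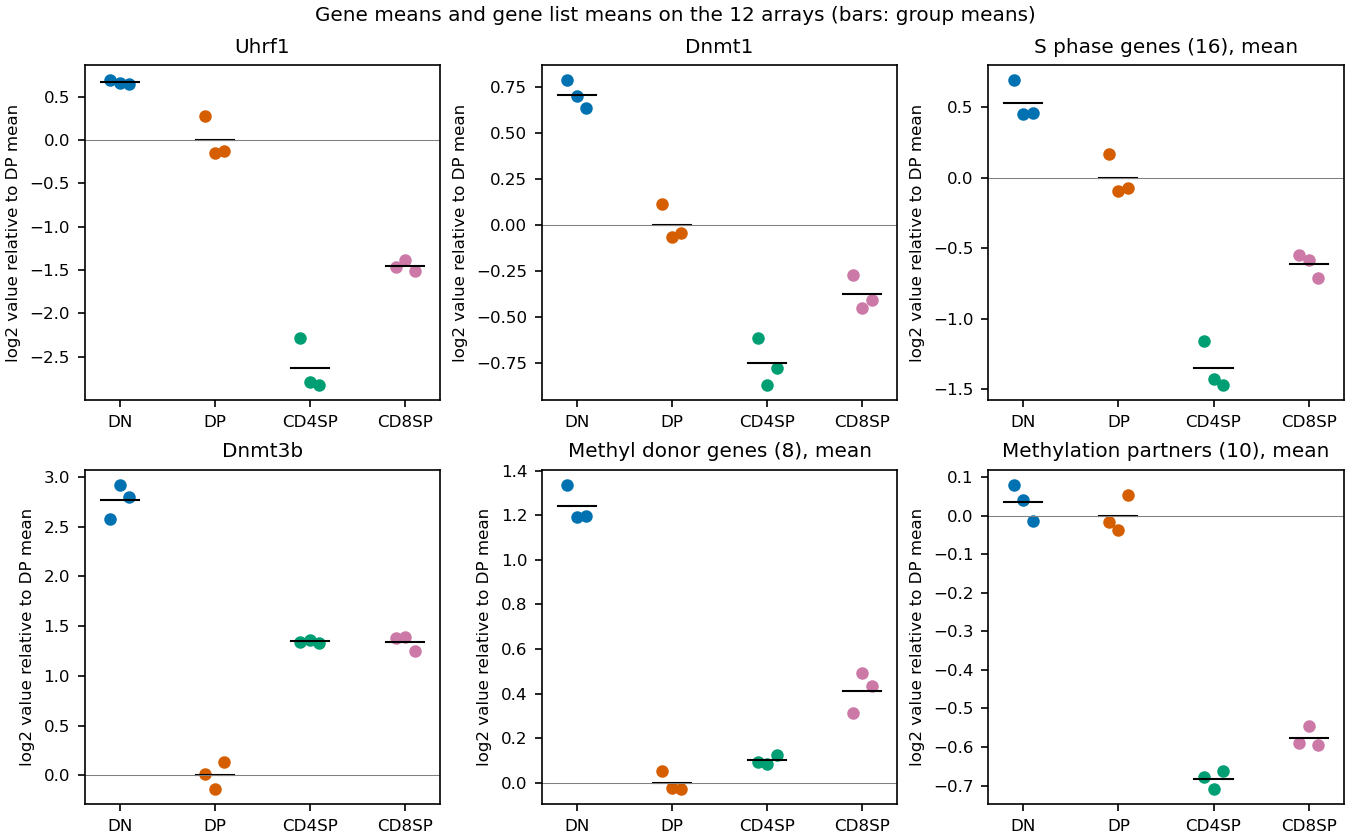
Uhrf1, Dnmt1 and Dnmt3b as means of their probe sets, and means of 3 gene lists, on each array. The horizontal axis gives the 4 subsets, the vertical axis the log2 value relative to the DP mean, points are arrays and bars are subset means (n = 3). The 16 S phase genes take the same order of subsets as Uhrf1 and Dnmt1, and the 8 methyl donor genes are highest in DN. The mean of the 10 genes listed as partners, relatives and regulators of the methyltransferases is lower in both single-positive subsets than in DN and DP.

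The methyl donor cycle, which makes S-adenosylmethionine and clears its product, was highest in DN, as were Dnmt3b, Uhrf1, Dnmt1 and the S phase genes. Of 8 measured genes of 11, 6 fell and 0 rose in DP relative to DN, 4 rose and 1 fell in CD4SP relative to DP, and 4 rose and 0 fell in CD8SP relative to DP (16.4% of all genes were higher in CD4SP than in DP, and 18.2% in CD8SP than in DP, and 18.8% were lower in DP than in DN). Their median difference was -1.19 in DP minus DN (0.04 over all genes). Quantile normalization ended all 5 calls in CD4SP minus DP, and 2 genes were called under it in CD8SP minus DP. Their mean per array was 1.19 to 1.34 in DN, -0.03 to 0.05 in DP, 0.08 to 0.12 in CD4SP and 0.31 to 0.49 in CD8SP. Shmt2, the mitochondrial serine hydroxymethyltransferase, was lower in DP than in DN (-2.65 ± 0.11) and higher in CD8SP than in DP (1.42 ± 0.11). Shmt1, its cytosolic form, and Mthfd1, a folate enzyme, gave -2.32 ± 0.09 and -2.34 ± 0.09 in DP minus DN. Ahcy, which hydrolyses S-adenosylhomocysteine, was lower in DP than in DN (-1.57 ± 0.12) and in CD4SP than in DP (-0.46 ± 0.12).

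Of 7 measured readers of methylated CpG and relatives such as Mbd3 (8 listed), 3 rose and 1 fell in DP relative to DN. In CD4SP relative to DP 2 rose and 5 fell. Over all genes 17.8% rose and 18.8% fell in DP minus DN, and 16.4% and 16.2% in CD4SP minus DP. For this list the median difference was 0.24 in DP minus DN and -0.38 in CD4SP minus DP, against 0.04 in both over all genes. Under quantile normalization 2 were called in DP minus DN and 3 in CD4SP minus DP. Mbd1 was lower in CD4SP (-0.81 ± 0.11) and CD8SP (-1.03 ± 0.11) than in DP, Mbd3 was lower in DP than in DN (-0.71 ± 0.09), and Mbd4, a reader that is also a glycosylase, was lower in CD4SP than in DP (-0.66 ± 0.10). Zbtb4, a zinc finger reader, rose in both comparisons, with 1.02 ± 0.15 in DP minus DN and 0.86 ± 0.15 in CD4SP minus DP.

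Of 11 measured genes of 15 in demethylation and base excision, 3 rose and 4 fell in DP relative to DN, 2 rose and 3 fell in CD4SP relative to DP, and 3 rose and 4 fell in CD8SP relative to DP. The shares of all genes that rose and fell were 17.8% and 18.8% in DP minus DN, 16.4% and 16.2% in CD4SP minus DP, and 18.2% and 20.9% in CD8SP minus DP. The list's median difference lay between -0.08 and 0.05 in these comparisons (0.00 to 0.04 over all genes), and under quantile normalization 4 of its genes were called in CD8SP minus DP. Ung, the uracil glycosylase, and Apex1, the endonuclease that cuts abasic sites, were lower in DP than in DN (-2.19 ± 0.10 and -2.67 ± 0.09) and higher in CD8SP than in DP (1.33 ± 0.10 and 1.42 ± 0.09). Parp1, a sensor of strand breaks, was lower in DP than in DN (-1.08 ± 0.10). Gadd45a, a stress gene linked to demethylation, went the other way, with 1.55 ± 0.18 in DP minus DN and -1.98 ± 0.18 in CD8SP minus DP.

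Of 12 measured cofactor and regulator genes of the Tet enzymes (13 listed), 0 rose and 4 fell in CD4SP relative to DP, while 1 rose and 5 fell in CD8SP relative to DP. Over all genes 16.4% rose and 16.2% fell in CD4SP minus DP, and 18.2% and 20.9% in CD8SP minus DP. The list's median difference was -0.19 and -0.14 in these comparisons, against 0.04 and 0.00 over all genes, and under quantile normalization 3 of its genes were called in CD8SP minus DP. Cxxc5, a CXXC protein that binds unmethylated CpG, was lower in CD4SP than in DP by a difference of -3.54 ± 0.22 (limma adjusted p = 6.83e-07) and lower in CD4SP than in CD8SP (-3.73 ± 0.22, limma adjusted p = 5.68e-06), while CD8SP minus DP was 0.19 ± 0.22 (limma adjusted p = 0.551). Idh1, which makes the 2-oxoglutarate that Tet enzymes use, was lower in CD4SP (-2.16 ± 0.12) and CD8SP (-2.72 ± 0.12) than in DP. Ogt, a glycosyltransferase that binds Tet proteins, was higher in DP than in DN (0.92 ± 0.09) and lower in CD8SP than in DP (-1.03 ± 0.09), and Idh3a, a mitochondrial subunit of isocitrate dehydrogenase, was lower in DP than in DN (-0.74 ± 0.07).

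The genes whose values over the 12 arrays were most like each member were found by Pearson's r among 18192 other genes, as a description, since the arrays fall into 4 subsets. For Uhrf1 they were Oip5, a centromere protein (r = 0.99), Zwilch, of the kinetochore (0.99), and Cdv3 (0.99), and for Dnmt1 Hdgf (0.99), the cell cycle factor Mybl2 (0.99) and the thymidine kinase Tk1 (0.99). Dnmt3b was most like Utp20 and Mybbp1a, both nucleolar proteins, and Cluh (0.99 each), while the highest values for Dnmt3a, whose probe sets disagree, were 0.90 for Zfp275, Csk and Slc9b2. Tet1 was most like the inhibitory receptor gene Cd200r1 (0.98), Mllt3 (0.97) and Cnot6l (0.96). For Tet2 they were Helz2, the GTPase gene Gimap8 and the immediate early gene Egr1 (0.99 each), and for Tet3 the phosphatase gene Ptpn1 (0.98), Myo1g (0.97) and Tmed11 (0.97).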

How the data were processed

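Total RNA of 4 sorted mouse thymocyte subsets was measured on 12 Affymetrix arrays, 3 per subset, grouped by the sample titles. The authors deposited 1 log value per probe set and array, read here as log2 (log base: not stated in the labels or files), and each probe set had been centred on its mean over the 3 DP arrays, since the largest absolute DP mean is 1.27e-06. The submitters' processing notes name MAS5, with no version or role. Values ran from -9.94 to 10.28 with 0 missing. No further normalization was applied, and no filter on dim probe sets was possible.

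Of 45101 probe sets, 64 controls were left out. The platform annotation gave 34958 probe sets 1 symbol, 932 several and 9211 none. The gene IDs of all 19 member probe sets had the same symbol in RefSeq (GRCm38.p6), from which the promoter windows came. For the files themselves, the genome build was not given in the sources used here.

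Linear models of limma 3.58.1 (R 4.3.3; lmFit, then contrasts.fit and eBayes without a trend; two-sided) were fitted to 45037 probe sets as 4 subset means, for 6 comparisons, with Benjamini-Hochberg adjustment within each and calls under 0.05. It was tested on simulated data. The 6 pathway lists and the marker lists were fitted likewise on 18193 gene means, the mean of a gene's probe sets with 1 symbol. Genes named from a pathway list are the 4 with the lowest adjusted p in any comparison, and the likeness genes are the 3 with the highest r, without clone or predicted-gene names. The members and lists were chosen with earlier results of these data known. The 20 alternatives on probe sets were omission of each array, omission of DN 1 and CD8SP 1 together, fits of only the arrays compared, a replicate block, median centring, quantile normalization, array weights, a variance trend and only probe sets with 1 symbol, and gene means were a further one.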

Additional observations from a re-analysis of the deposited data

Results flagged for a closer look

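The differences from DP were unequal in the single-positive subsets for 7 of the 19 probe sets, by the limma test of CD4SP minus CD8SP over all probe sets, which is the test of that inequality. Uhrf1 was lower in CD4SP on 1415810_at (-1.21) and 1415811_at (-1.16), and both calls were lost in 1 of 20 alternatives, quantile normalization. Dnmt1 was lower in CD4SP on 1435122_x_at (-0.37) and 1447877_x_at (-0.46), and the calls were kept in 8 and 7 of 20 alternatives. Tet1 was higher in CD4SP on 1455425_at (0.56), 1429448_s_at (0.64) and 1419896_at (0.39), with calls kept in 19, 8 and 13 of 20 alternatives. With 3 arrays per subset no array was tested as an outlier.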

How the results depend on the processing

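No member difference that was called, as reported or under an alternative, changed direction under any of the 20 alternatives on probe sets. Quantile normalization forces the narrow DP arrays (SD of 0.22 to 0.23 over probe sets, against 0.70 to 0.86 on the others) to the width of the rest. They are narrow since centring on the DP mean leaves only the deviations of these arrays from it. Quantile normalization widens these deviations, which enter the spread estimate of the fit. It called 6841 probe sets in DP minus DN, 6164 in CD4SP minus DP, 5867 in CD8SP minus DP, 377 in CD4SP minus CD8SP, 9471 in CD4SP minus DN and 6784 in CD8SP minus DN, against 15787, 12755, 16218, 5120, 18575 and 17244 as reported. Under it 5 member probe sets were called in DP minus DN, 3 in CD8SP minus DP and 0 in CD4SP minus CD8SP. A fit of only the arrays compared called 2606 probe sets and 3 members in CD4SP minus CD8SP. On gene means, which are fewer, 6660, 5942, 7103, 2308, 7942 and 7447 genes were called in the order above, and 4, 7, 5, 3, 6 and 5 of the 7 member genes. Without 1 array at a time the counts ranged from 12796 to 17180 in DP minus DN, 10138 to 14234 in CD4SP minus DP, 13439 to 16291 in CD8SP minus DP, 2897 to 5878 in CD4SP minus CD8SP, 15411 to 20091 in CD4SP minus DN and 14132 to 16848 in CD8SP minus DN. CD4SP minus CD8SP fell to 2897 without CD4SP 3 and to 3090 without CD4SP 2. Members called ranged from 7 to 9, 15 to 15, 10 to 14, 3 to 6, 16 to 17 and 13 to 15 in the same order, and in CD4SP minus CD8SP there were 3 without CD4SP 2, CD4SP 3, CD8SP 2 or CD8SP 3 and 4 without DP 3. Median centring of the arrays moved the split of calls in DP minus DN to 7009 higher of 15045 (8854 of 15787 as reported), in CD4SP minus CD8SP to 2491 of 4547 (3416 of 5120) and in CD4SP minus DN to 7911 of 17418 (10488 of 18575), and quantile normalization to 3238 of 6841, 189 of 377 and 3953 of 9471. The more frequent direction of all calls turned under both in DP minus DN and CD4SP minus DN. The replicate numbers were not taken to pair the arrays, since 6 of 18 same-number pairs, not all, had a residual correlation over 0.1. It was 0.09 to 0.15 for number 1, -0.02 to 0.09 for number 2 and 0.03 to 0.12 for number 3, above 0 in 16 of 18 pairs, and -0.15 to 0.08 between different numbers. As a hint from the data and not the design, an array correlated best with its own number in 27 of 36 comparisons with the 3 arrays of another subset. Of 12 arrays, 5 did so in every other subset. The fit as reported leaves out any such shared effect of the number. With the replicate block, 16838 probe sets were called in DP minus DN, 13585 in CD4SP minus DP, 17141 in CD8SP minus DP and 6068 in CD4SP minus CD8SP, with 9, 15, 13 and 8 members. The block ended the calls of 1423066_at (Dnmt3a) in DP minus DN (limma adjusted p = 0.0502) and CD8SP minus DP (0.0516), and added 1455300_at (Tet2) in DP minus DN (0.0233), 1455425_at (Tet1) in CD8SP minus DN (0.0273) and 1460324_at (Dnmt3a) in CD4SP minus CD8SP (0.0222). Of the counts of called genes in the pathway lists, 41 of the alternatives' values moved by over 1.5 times and 643 did not. Apart from the constructions named, the cause of these changes was not tested.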
